A study of Sus scrofa with 24 samples.

Results

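The genes described here were 45 cell cycle and DNA replication genes, taken by their gene symbol from an expression array of fetal pig muscle. They fell into 14 genes of DNA replication, 18 of mitosis and 13 that control the step out of G1, the phase before replication. Of the 45 genes, 43 had a probe set with that symbol, of 13755 symbols on the array. CCNA2 and CCND1 had none named here. Signals passed the filter on dim probe sets (above the array's median in at least 20 of the 24 arrays) for 42 of them, of 9710 genes in all, and each gene was read from its brightest passing probe set. PRC1, which bundles spindle microtubules at the end of mitosis, was the gene below that filter, with a median signal of 6.54 on the log2 scale.

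Every array held RNA of the longissimus dorsi muscle (LDM) of 1 fetus of an F2 cross of German Landrace and Pietrain pigs, collected at 63 days post conception (dpc), and 24 fetuses were measured with 1 array each. The study asked how growth restricted fetuses differ from those of appropriate weight. The labels used here put no fetus in a weight class, litter or sex, which the study lists elsewhere by fetus number. No fit compared such groups, and values are given over all 24 fetuses of both weight classes, named by their numbers. By the study's methods the fetuses share 1 sire and were picked as light and heavy littermates, so every fetus has siblings among the others. Neither litter nor sex entered any fit, so the p-values treat siblings as independent and may be too small.

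In a dividing cell, D cyclins with CDK4 or CDK6 and then E cyclins with CDK2 inactivate RB1 and its relative RBL1, which frees E2F factors to switch on the genes of replication. Origins are licensed when CDC6 and CDT1 load the MCM2 to MCM7 helicase, and a later wave of genes led by CDK1 and its B cyclins drives mitosis. These roles are known from human, mouse and yeast cells. In fetal muscle the dividing cells are mainly myoblasts and their progenitors, connective tissue and vessel cells, while fused fibres have left the cycle. In whole muscle, fewer dividing cells and less RNA per dividing cell cannot be told apart.

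The muscle identity of the samples was clear in the markers: 8 of 10 fibre markers passed the filter, with a median level over them of 12.94 to 13.34 per fetus, against 9.71 for the brightest class of background control probe sets. The array medians lay between 6.61 and 6.73, but RMA normalization sets the arrays to 1 distribution, so this is no check on them. Each array was correlated with the other 23, and the median of these correlations was 0.946 at the lowest (fetus 338) and 0.980 at the highest. The main axis of difference between fetuses, the first principal component of genes outside the lists used here, held 39.7% of the variance. It moved with the background control probe sets (r = 0.77 over 24 arrays), whose mean was lowest in fetus 338 (7.30) and highest in fetus 313 (7.94). The part of background in the results below was not tested beyond the values given beside them. The study lists weight classes outside the labels, under fetus numbers that match those used here. By that listing, the component was negative in growth restricted fetuses except 281 (7.83), and positive in those of appropriate weight except 363 (-1.81). Background and weight class thus both lie along this axis, and the part of each was not tested. Its relation to litter and sex was not analysed here.

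The medians of 4 of 42 (PCNA, CCND2, CDK4 and CDKN1A) lay above that brightest background class, against 1282 of all 9710 genes. That class holds control probes of 24 G or C bases, and the class of 13 such bases lay at 4.18. The G and C content of the gene probes was not compared. A median below the brightest class therefore does not place a gene within background. Spread over fetuses was measured as the span, the 90th minus the 10th percentile on the log2 scale. The median span was 0.47 for the 14 replication genes, 0.54 for the 16 mitosis genes and 0.41 for the 12 G1 genes, against 0.42 for all genes. Spans above that all-gene median were seen in 9 of 14, 13 of 16 and 6 of 12 genes of these groups.

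**Figure D1:**
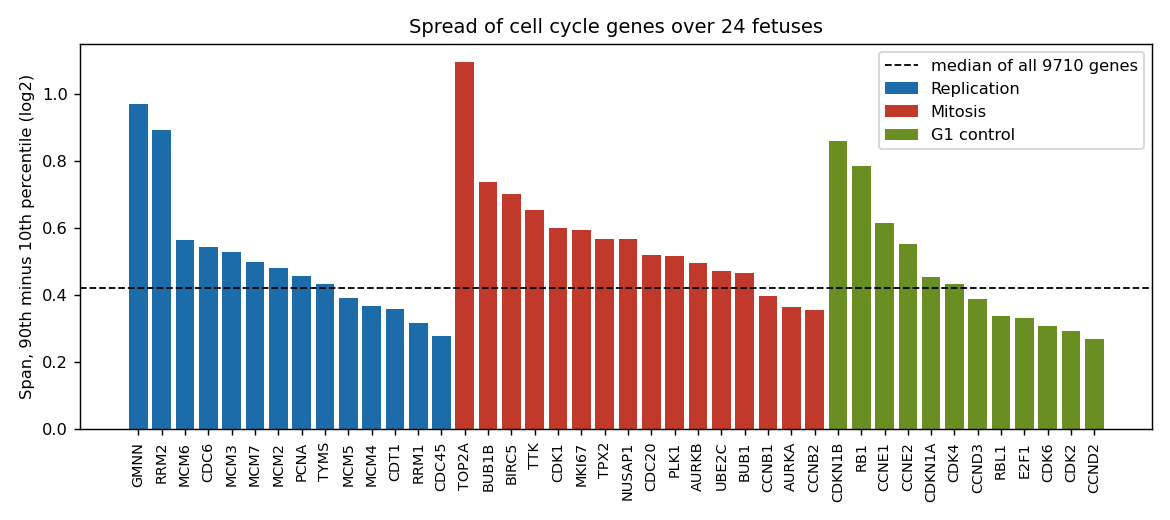
Bars give the span (90th minus 10th percentile over 24 fetuses, log2) of each of 42 cell cycle genes, ordered within replication (blue), mitosis (red) and G1 control (green), and the dashed line is the median of all 9710 genes. TOP2A (1.09), GMNN (0.97) and RRM2 (0.89) had the highest bars, and CCND2 (0.27) the lowest.

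Among the replication genes, GMNN spread most. GMNN encodes geminin, which binds CDT1 and blocks a further round of licensing. Its signal had a lowest value of 6.82 (fetus 313), a median of 7.41 and a highest value of 8.38 (fetus 338), a span of 0.97 or 1.96-fold. RRM2, the regulated small subunit of ribonucleotide reductase, which makes the DNA building blocks, lay between 7.04 (fetus 274) and 8.87 (fetus 370) with a median of 7.83. The fetuses at the extremes of GMNN were thus not those at the extremes of RRM2. MCM6, a subunit of the helicase, had a median of 9.43 and extremes of 8.92 (fetus 274) and 9.71 (fetus 338). CDC6, which loads that helicase, was lowest in fetus 376 (6.96) and highest in fetus 370 (7.96), with a median of 7.64. The narrowest replication genes were CDC45, which activates the loaded helicase (8.68 to 9.20, span 0.28), and RRM1, the large subunit of ribonucleotide reductase (9.30 to 9.88, span 0.32). CDC45 was read by 7 passing probe sets, and the lowest correlation between a pair of them was -0.003.

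The other replication genes had spans between 0.36 and 0.53. MCM2, a second helicase subunit, ranged from 7.17 (fetus 274) to 7.99 (fetus 307) around a median of 7.70. PCNA, the sliding clamp of the DNA polymerases, was the brightest of the group with a median of 10.12. TYMS, which makes thymidylate, and CDT1 had medians of 8.83 and 7.52.

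Among the mitosis genes the widest was TOP2A, the topoisomerase that untangles chromosomes before they separate. Its signal was 8.06 at the lowest (fetus 283), 8.80 at the median and 9.92 at the highest (fetus 338), and its span of 1.09 was 2.14-fold. A second passing probe set of TOP2A followed the first (r = 0.96). BUB1B, a spindle checkpoint protein, lay between 7.05 (fetus 274) and 8.14 (fetus 338) with a median of 7.47. TTK, the kinase that starts that checkpoint, had the same fetus at the top, with 7.08 (fetus 307), 7.52 and 8.41 (fetus 338) as its lowest, median and highest values. BIRC5 or survivin, which sits with AURKB in the chromosomal passenger complex, was instead lowest in fetus 311 (7.62) and highest in fetus 272 (8.57), with a median of 8.13. CDK1, the kinase that brings cells into mitosis, was the dimmest of the group, with a median of 7.003 and extremes of 6.63 (fetus 274) and 7.58 (fetus 370). The narrowest spans were those of CCNB2, a partner of CDK1 (0.36), and AURKA, a kinase of the spindle poles (0.37). Both nevertheless stood below all their other values in fetus 274: CCNB2 was 7.15 there and 7.52 in the next lowest fetus, and AURKA was 7.30 there and 7.74 in the next.

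Of the G1 genes, CDKN1B, an inhibitor of cyclin kinases that holds cells in G1, spread most. It had 8.64 at the lowest (fetus 313), 9.70 at the median and 10.03 at the highest (fetus 274). RB1, which keeps E2F factors inactive, lay between 8.75 (fetus 313) and 9.84 (fetus 338) with a median of 9.27, and so shared its lowest fetus with CDKN1B. The E cyclins CCNE1 and CCNE2 had spans of 0.62 and 0.55 and different extremes: CCNE1 was 6.65 at the lowest (fetus 320) and 7.78 at the highest (fetus 272), and CCNE2 was 6.71 (fetus 313) and 7.79 (fetus 338). The levels of CCND2, a D cyclin, stayed within 11.87 to 12.26 (span 0.27) and those of CDK2 within 7.63 to 8.10 (span 0.29). For CCND2 the lowest correlation between a pair of its 4 passing probe sets was -0.14. CDKN1A, another inhibitor, stood at 10.77 in fetus 384 and at 11.30 or above in the others.

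One fetus stood apart in these genes. In fetus 274 the signal was below the gene's own median in 40 of 42 genes, against 51.5% of all genes, and it was the lowest of the 24 fetuses in 20 of 42, against 5.98% of all genes. The counts were 7 of 14 for replication, 11 of 16 for mitosis and 2 of 12 for G1 control. The median difference from the gene's median was -0.47 for the mitosis genes and -0.31 for the replication genes, against -0.005 for all genes. Thus the typical mitosis gene was at 0.722-fold of its median and the typical replication gene at 0.807-fold. The deepest shortfalls were those of RRM2 (0.577-fold), UBE2C, which hands ubiquitin to mitotic proteins (0.583-fold), CDC20, which activates that destruction (0.598-fold), CCNB2 (0.622-fold) and AURKA (0.624-fold). The 2 genes above their median were CDKN1B (1.26-fold, the highest of all fetuses) and RB1 (1.15-fold). The inhibitor CDKN1A (0.936-fold) and the RB1 relative RBL1 (0.939-fold) were below theirs. These values are of 1 animal on 1 array and carry no test.

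**Figure D2:**
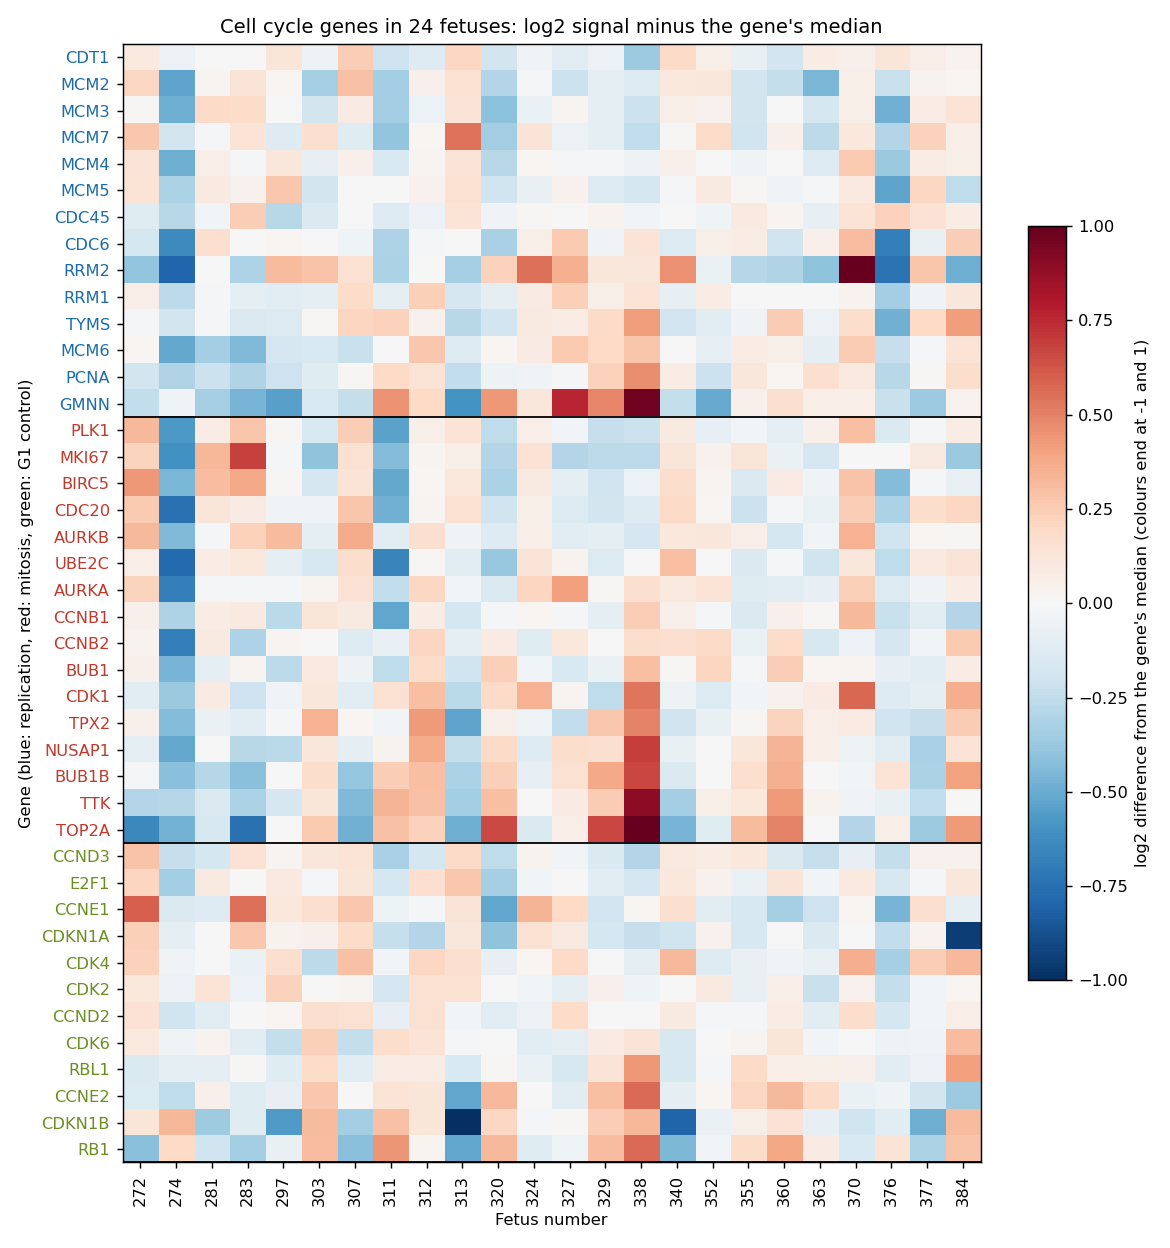
Each cell is the log2 signal of 1 of 42 cell cycle genes (rows) in 1 fetus (columns) minus the gene's median, with rows ordered within each group by their r with the first component and colours ending at -1 and 1. The column of fetus 274 is blue in 40 of 42 rows, and that of fetus 338 is red towards the foot of the mitosis rows.

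The same fetus was low in cell cycle genes outside the 45. Of 27 further mitosis genes that passed the filter, 26 were below their median in fetus 274 and 16 were at their lowest there, with a median difference of -0.35. Of 28 further replication genes, 20 were below their median and 5 at their lowest, with a median difference of -0.16. Of 20 further G1 genes, 14 were below their median and 5 at their lowest, with a median difference of -0.13. Over all genes, 51.5% were below their median and 5.98% at their lowest. Cell type markers lay closer to their medians than the mitosis genes did: the median difference was -0.10 for 7 markers of myogenic progenitors, -0.13 for 8 of muscle fibres, -0.04 for 8 of endothelium, 0.01 for 5 of red cells, -0.13 for 4 of leukocytes, -0.11 for 4 of Schwann cells and 0.07 for 8 of connective tissue. By count, 7 of 8 fibre, 7 of 8 endothelial, 6 of 7 progenitor, 3 of 4 leukocyte and 3 of 4 Schwann cell markers were below their median. For connective tissue the count was 3 of 8 and for red cells 2 of 5. These shares reached 87.5%, against 71.4% of the further replication genes and 96.3% of the further mitosis genes. The array had a mean background of 7.55, the 8th lowest of 24, and a median correlation of 0.966 with the other arrays, the 7th lowest. Its value on the first component was -11.35, the 6th lowest. Whether RNA quality or the array had a part in the low signals was not tested.

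Fetus 376 was low as well, but with another profile. Its signal was below the median in 37 of 42 genes, against 64.2% of all genes. The median difference was -0.32 for replication and -0.14 for mitosis genes, against -0.095 for all genes. Cell type marker lists lay between -0.27 (red cells) and -0.04 (Schwann cells), so the mitosis genes were within the range of the markers. Fetus 376 was at the lowest value of 6 of 42 genes, a share close to the 15.4% of all genes. Among them were MCM5, TYMS, RRM1 and CDC6 of the replication group. None of the 16 mitosis genes was lowest there. This array had the lowest correlation with the others but 1 (0.961), and its mean background of 7.77 was the 21st of 24 from the lowest. At the other end, fetus 338 held the highest value of 12 of 42 genes, 6 of them mitosis genes, against 13.3% of all genes. It had TOP2A at 2.16-fold, GMNN at 1.95-fold and TTK at 1.86-fold of the median, but CDT1 at 0.777-fold, its lowest value, and it had the lowest background and the lowest array correlation. By the study's listing, fetuses 274, 376 and 338 are all in the growth restricted class, whose part here was not tested.

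**Figure D3:**
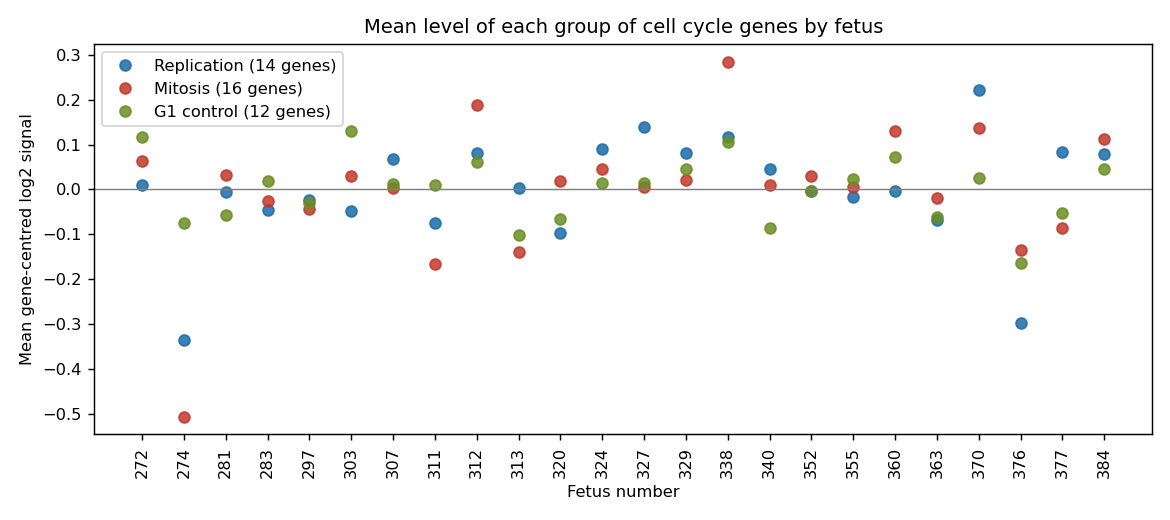
Points give, for each fetus, the mean over the genes of a group of their log2 signal centred on each gene: replication (blue, 14 genes), mitosis (red, 16 genes) and G1 control (green, 12 genes). Fetus 274 is lowest for mitosis (-0.51) and replication (-0.34), fetus 376 is next for replication (-0.30), and the highest replication point is that of fetus 370 (0.22).

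Replication and mitosis were then set against each other. The mean levels of the 2 groups moved together over the 24 fetuses (r = 0.74, Spearman's rho = 0.56), given as a description because the genes were chosen with results known. Without the 2 fetuses farthest from the median for replication, which were 274 and 376, r was 0.49. The mitosis mean was -0.51 in fetus 274 and -0.17 in the next lowest fetus, 311. The replication mean was -0.34 in fetus 274, -0.30 in fetus 376 and -0.10 in the next, 320. Between those low values and the top, fetus 338 led for mitosis (0.28) and fetus 370 for replication (0.22), so the fetuses at the top were not the same.

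Single pairs of genes were less uniform than these means. Pearson's r averaged 0.33 over the 120 pairs within mitosis, of which 95 were positive, 0.26 over the 91 pairs within replication, of which 70 were positive, and 0.26 over the 224 pairs between the groups, of which 171 were positive. Without fetuses 274 and 376 the averages were 0.15, 0.12 and 0.10. Pairs within a group thus had averages close to those between the groups, and both fell when these fetuses were left out.

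The genes also differed in their place on the first component, which was built without them. At its positive end were CDT1 (r = 0.83), PLK1, a kinase of mitotic entry and spindle assembly (0.77), the D cyclin CCND3 (0.77), MCM2 (0.71), MKI67, the nuclear antigen used to mark dividing cells (0.71), and BIRC5 (0.70). At its negative end were RB1 (-0.96), TOP2A (-0.87), TTK (-0.86), BUB1B (-0.76), CDKN1B (-0.75), GMNN (-0.74) and CCNE2 (-0.71). An r above 0.5 was seen in 16 of 42 genes (38.1%, against 30.2% of all genes) and one below -0.5 in 12 (28.6%, against 20.8% of all genes). Genes of all 3 groups stood at both ends: for mitosis 6 were above 0.5 and 5 below -0.5, for replication 6 and 2, and for G1 control 4 and 5.

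**Figure D4:**
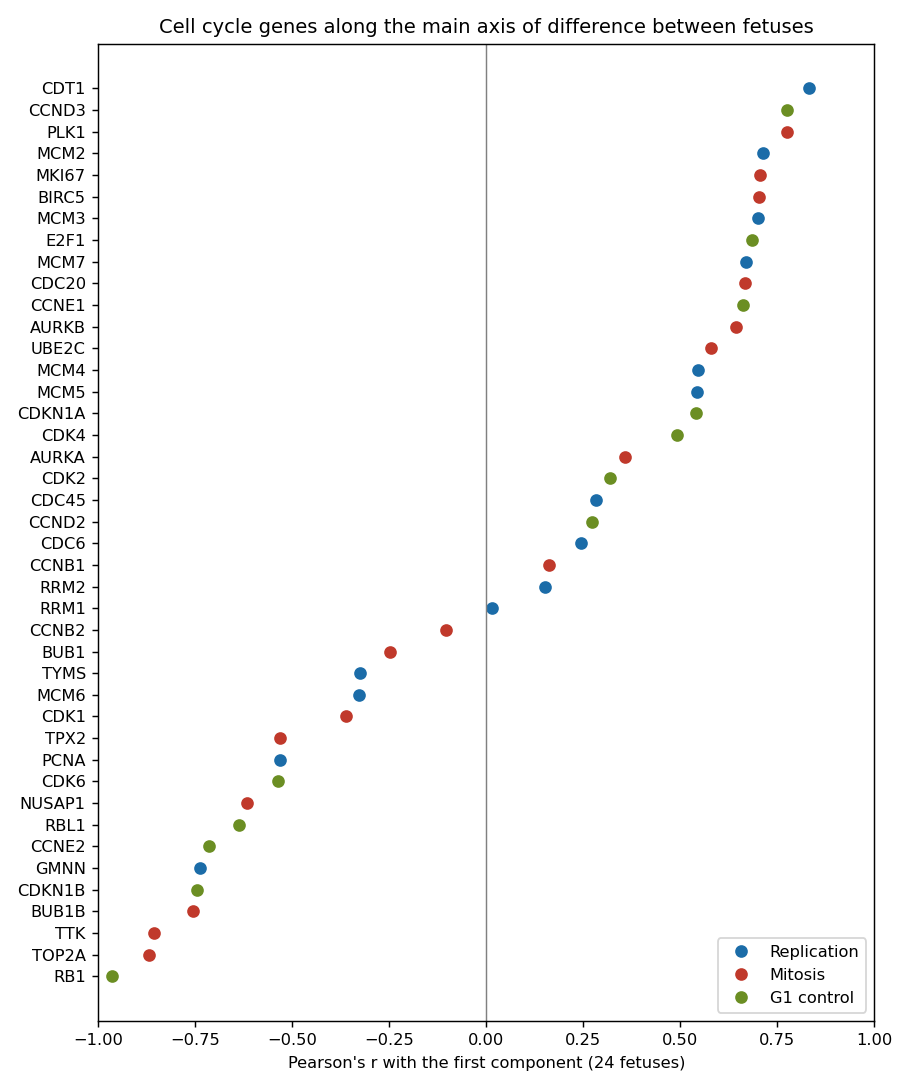
Points give Pearson's r of each of 42 genes with the first component over 24 fetuses, with colours for replication (blue), mitosis (red) and G1 control (green). Each group runs across 0, with CDT1 (0.83) at one end and RB1 (-0.96) at the other.

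When the first component was regressed out of every gene, the mitosis genes fell into 1 block. All 120 mitosis pairs then had a positive r, from 0.09 to 0.84, with a mean of 0.58, against 0.33 before. The mean r was 0.30 within replication and 0.37 between the groups, each a smaller change from 0.26. TOP2A and MKI67, both markers of dividing cells, are an example: r was -0.55 between them as measured (rho = -0.62) and 0.18 after the component was taken out. With the component out, no r was computed without fetus 274, which was lowest in 11 of 16 mitosis genes. As measured, the mean r within mitosis was 0.18 without that fetus. The regression was added after the data were seen, and the component moves with the background signal and with the listed weight class. Regressing it out would also remove any difference by weight class, litter or sex that lies along it.

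**Figure D5:**
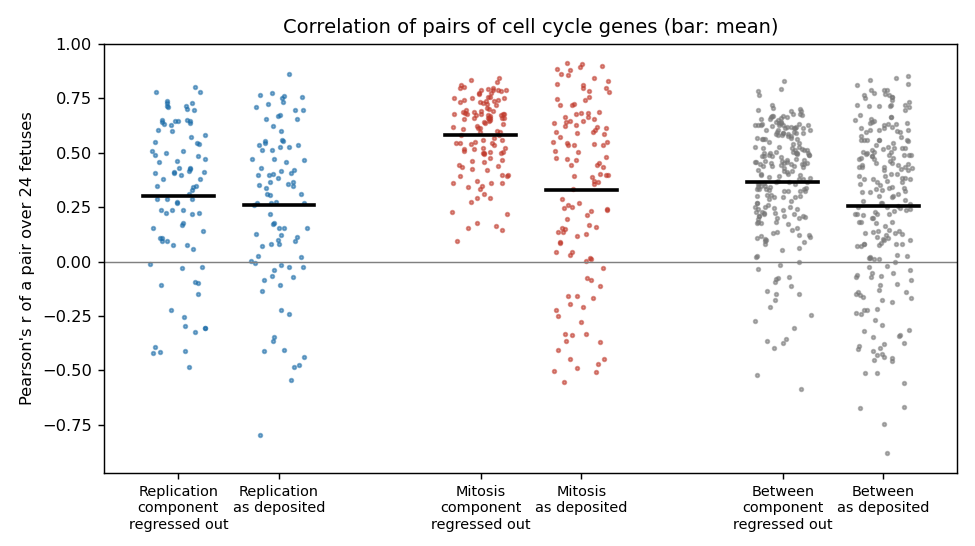
Each point is the Pearson's r of 1 pair of genes over 24 fetuses, after the first component was regressed out and as deposited, for 91 pairs within replication, 120 within mitosis and 224 between the groups, and bars give the means. With the component out, all mitosis points lie above 0 (mean 0.58), against 95 of 120 as deposited (mean 0.33).

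Genes whose products work together were compared as pairs, chosen for their known partnership after values had been seen and so given with no test, each over 24 fetuses. Within the MCM helicase, MCM2, MCM3, MCM4, MCM5 and MCM7 followed each other, with r from 0.47 to 0.86 (mean 0.67) over their 10 pairs. MCM6 did not share this, with r from -0.02 to 0.40 (mean 0.13) against those 5. It followed PCNA instead (r = 0.76, rho = 0.74). With the first component out, the mean over all 15 MCM pairs was 0.46, and MCM6 had a mean r of 0.46 with the other 5.

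The licensing factor CDT1 and its inhibitor GMNN were opposed, with r = -0.80 and rho = -0.78, and r was -0.80 also without fetuses 274 and 376. This was not particular to GMNN: CDT1 had r = -0.88 with TTK of the mitosis group, and -0.59 with the first component out. CCNE1 and CCNE2, which serve the same kinase, had r = -0.38 and rho = -0.49. With the first component out, r was 0.18 for CCNE1 and CCNE2 and -0.49 for CDT1 and GMNN. PLK1 and CDC20 followed each other (r = 0.89, rho = 0.88), as did CDC20 and UBE2C (r = 0.90, rho = 0.85), both parts of the machinery that destroys mitotic cyclins. The checkpoint genes TTK and BUB1B did so too (r = 0.88, rho = 0.86), and TTK also followed TOP2A (r = 0.91, rho = 0.90). The closest mitotic partners were looser as measured: CDK1 and CCNB1, which form 1 kinase, had r = 0.40 and rho = 0.32, and AURKA and its activator TPX2 had r = 0.33 and rho = 0.25. With the first component out, r was 0.50 for CDK1 and CCNB1 and 0.66 for AURKA and TPX2. It was then 0.69 for TTK and BUB1B, 0.65 for TTK and TOP2A, 0.80 for PLK1 and CDC20, and 0.84 for CDC20 and UBE2C. RRM1 and RRM2, 2 subunits of 1 enzyme, had r = 0.40, but 0.10 without fetuses 274 and 376.

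Fits across all genes asked which members moved with 1 gene of each group, by limma with Benjamini-Hochberg adjustment over all genes tested. With CDK1 as the mitosis gene, 0 of 41 other members passed an adjusted p of 0.05, and the background was likewise 0% of 9709 genes. At an unadjusted p under 0.05 there were 19 members and 1722 genes, and a permutation test of r with the same adjustment called 0 genes. The closest were MCM6 (slope 0.56 ± 0.15 SE, limma adjusted p = 0.131), TPX2, which switches on AURKA (0.63 ± 0.16, limma adjusted p = 0.131), and NUSAP1, a spindle protein (0.63 ± 0.17, limma adjusted p = 0.131).

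With MCM2 as the replication gene, 21 of 41 members were called, beside 32.9% of all genes. Of these 17 had a positive slope (17.3% of all genes) and 4 a negative one (15.7% of all genes). Positive slopes, in log2 units per log2 unit of MCM2, were steepest for mitosis genes: MKI67 (0.94 ± 0.19 SE), CDC20 (0.93 ± 0.14), UBE2C (0.89 ± 0.16), BIRC5 (0.88 ± 0.16) and PLK1 (0.81 ± 0.15), with limma adjusted p-values from 0.000957 to 0.00128. CDC20 had r = 0.82 and rho = 0.83 with MCM2 (permutation p = 1e-05 for each, the smallest that 100000 permutations can give), and r was 0.82 without the 2 fetuses farthest out in MCM2. The 4 negative slopes were those of RB1 (-1.05 ± 0.20, limma adjusted p = 0.00106), TOP2A (-0.98 ± 0.37, limma adjusted p = 0.0397), CDKN1B (-0.93 ± 0.28, limma adjusted p = 0.0130) and GMNN (-0.90 ± 0.32, limma adjusted p = 0.0311). By group, 5 of 13 replication genes, 7 of 16 mitosis genes and 5 of 12 G1 genes were positive. MCM6 (r = 0.07), PCNA (-0.14), TYMS (0.08) and CDK1 (-0.02) were not called. Of the 17 positive genes, 14 had an r above 0.5 with the first component. With MCM6 in place of MCM2 4 members were called, and with the first component as a covariate 0. The call of TOP2A was lost also with no filter or with the arrays centred on their medians, and those of TOP2A, CDKN1B and GMNN with the background signal as a covariate.

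A fit with CDK1 and MCM2 together asked which genes moved more with the one than with the other, each per SD. The slope on MCM2 given CDK1 was called in 23 of 40 members, beside 34.1% of all genes. The slope on CDK1 given MCM2 was called in 0 of 40 members and 0% of all genes by limma, with 22 members at an unadjusted p under 0.05. The difference of slopes, CDK1 minus MCM2, was called in 24 of 40 members, beside 36.7% of all genes. It was positive in 11 members (20.2% of all genes) and negative in 13 (16.5% of all genes). TOP2A (0.43 ± 0.10 SE), GMNN (0.39 ± 0.08), RB1 (0.33 ± 0.05), CDKN1B (0.31 ± 0.08) and TTK (0.30 ± 0.06) had the highest differences, with limma adjusted p-values from 0.000224 to 0.00481. MKI67 (-0.24 ± 0.06), CCNE1 (-0.18 ± 0.06), MCM7 (-0.17 ± 0.05), CDKN1A (-0.16 ± 0.06) and CCND3 (-0.16 ± 0.04) had the lowest, with limma adjusted p-values from 0.00196 to 0.0428. Mitosis genes stood on both sides, 5 positive and 6 negative of 15, and so did replication genes, 2 and 3 of 13. All 11 positive genes had an r below -0.5 with the first component and all 13 negative ones an r above 0.5. The count was 0 with the background signal or the first component as a covariate, and 0 with CCNB1 and MCM6 in place of CDK1 and MCM2.

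The background control probe sets themselves were used as the covariate in a last fit. The slope was called in 19 of 42 members, beside 43.6% of all genes, with 6 positive (20.8% of all genes) and 13 negative (22.7% of all genes). The most negative slopes were those of TOP2A (-2.32 ± 0.45 SE), GMNN (-2.03 ± 0.40), CDKN1B (-1.71 ± 0.39), TTK (-1.60 ± 0.30) and RB1 (-1.53 ± 0.32), with limma adjusted p-values from 0.000191 to 0.00126. The positive ones were led by MKI67 (0.88 ± 0.36), MCM7 (0.84 ± 0.27), CDT1 (0.78 ± 0.17), PLK1 (0.76 ± 0.29) and CCND3 (0.65 ± 0.22), with limma adjusted p-values from 0.000664 to 0.0470. All 6 positive genes had an r above 0.5 with the first component, and 11 of the 13 negative ones an r below -0.5. The count was 9 without fetus 338, and the call of MKI67 was lost also without fetus 274 or with no filter.

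Cell cycle genes outside the 45 were described in the same way. Of 28 further replication genes, 12 had a positive slope on MCM2 (17.3% of all genes) and 3 a negative one (15.7% of all genes). The widest of them were RFC1, a subunit of the clamp loader (span 0.95, r with the first component -0.95), MCM8 (0.92, -0.83) and FEN1, the flap nuclease (0.72, 0.05). Of 27 further mitosis genes, 11 were positive and 3 negative on MCM2, beside the same shares, while 1 was positive (20.8% of all genes) and 14 negative (22.7% of all genes) on the background. Here the widest were SMC2 (1.03, -0.86) and SMC4 (0.99, -0.89), the core of condensin, which compacts chromosomes, and CKAP2, a spindle protein (0.99, -0.76), and all 3 were highest in fetus 338. The 20 further G1 genes had 5 positive and 4 negative slopes on MCM2, beside 17.3% and 15.7% of all genes, with CCNG1 (1.03, -0.90), MDM2 (0.72, -0.70) and BTG2 (0.65, 0.54) the widest.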

How the data were processed

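Total RNA of the LDM of 24 fetuses was hybridised to Affymetrix Porcine Snowball arrays. The authors normalized the arrays by RMA in Expression Console and deposited log2 signals, which were used as given. GCOS 1.1.1 is listed in the submitters' processing notes. For the probe annotation a genome build was not given in the sources used here. Of 47845 probe sets, 123 were controls, 26426 had 1 gene symbol, 0 had several and 21296 had none named here. An older symbol was replaced for 308 probe sets, among them that of AURKA. A gene was read from its brightest probe set by median among the 14867 that passed the filter. Since RMA sets the arrays to 1 distribution, a shift common to all genes cannot be seen. Arrays carry no read depth, so their number and the background limit the precision.

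The labels gave no groups, and the weight classes, dams and sexes that the study lists outside them entered no fit. The listed weight classes were only set beside the first component and beside fetuses 274, 376 and 338. Values were described by range, median and span, and related to covariates by limma 3.58.1 in R 4.3.3 with Benjamini-Hochberg adjustment. Permutation tests were two-sided with 100000 permutations. The group means are of gene-centred values. Background was the mean of 39 control probe sets that hold at least 13 bases G or C. The fit was tested on simulated data first. The covariate genes were the first of a fixed order to pass the filter. Named in full were the covariate genes and, in each group, the 4 widest and 2 narrowest genes, for other lists the 3 widest genes, in each fit the 5 steepest called members each way, and the 10 genes closest to each group mean. RRM2, UBE2C, CDC20 and the other genes named in fetuses 274, 376 and 338, PCNA, TYMS, CDT1, CDKN1A and the gene pairs were named after their values were seen. The members and lists were chosen with earlier results of these data known. Alternatives covered the choice of probe set, filters, centring, covariates and fetuses left out. Promoter sequences were not analysed here.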

Additional observations from a re-analysis of the deposited data

How the results depend on the processing

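No paired analysis was run, because the labels put no fetus in a group or pair. The dams that the study lists outside the labels entered no fit. With MCM6 and CCNB1 in place of MCM2 and CDK1, the fit on the replication gene, then MCM6, called 4 members. The fit on both called 0 for the difference and 4 for the replication slope. These counts were 21, 24 and 23 in the fits reported, on MCM2 and CDK1. With the first component as a covariate each of these counts was 0. With the background as a covariate they were 16, 0 and 13. A stricter filter gave 15 of 26 members for the replication slope and 11 of 26 for the background fit, which called 8 with control probe sets of lower G and C content and 9 without fetus 338, against 19. The mitosis slope in the fit on both called 1 member with the mean of all probe sets, against 0. The span of members over that of all genes was 1.16, and 1.07 with arrays centred, 1.07 with no filter and 1.06 with the stricter one. Mean r without fetuses 274 and 376 was 0.119 within replication, 0.154 within mitosis and 0.0983 between them. Over all 24 fetuses, mean r within mitosis was 0.580 with the first component out. The causes were not tested.

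With MCM6 for MCM2, slopes reversed to -0.31 for MKI67, 0.42 for RB1, 1.20 for TOP2A, 0.41 for CDKN1B and 1.23 for GMNN. With the first component as a covariate they reversed to 0.74 for TOP2A and 0.20 for GMNN. The difference of slopes reversed, with CCNB1 and MCM6, to -0.38 for TOP2A, -0.31 for GMNN, -0.22 for RB1, -0.14 for CDKN1B, -0.20 for TTK, 0.24 for MKI67, 0.13 for CCNE1, 0.0871 for MCM7, 0.23 for CDKN1A and 0.0664 for CCND3. With the first component it reversed to -0.0818 for TOP2A, -0.00372 for TTK and 0.00423 for CCNE1. TOP2A's slope on MCM2 missed the threshold in 5 further settings. Named slopes kept their direction in the other settings tried.

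Of the 42 genes 4 had a median above the brightest background class, that of 24 G or C bases. Of the 45 genes 16 had several passing probe sets, of which 12 had every pair above r = 0.5.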

Other observations

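Outside the 45 genes, those that followed the mean level of the mitosis genes most closely over the 24 fetuses were led by MELK (r = 0.84), a kinase of dividing cells, EXO1, a DNA repair exonuclease (0.81), and NCAPH, a condensin subunit (0.79). Enzymes of cholesterol synthesis stood among the 10 closest: SQLE (r = 0.79, rho = 0.55), MSMO1 (0.76, rho = 0.44) and HMGCS1 (0.71, rho = 0.48). SQLE was 8.80 in fetus 274, against a median of 9.94, and its r was 0.52 without that fetus. The others were DTL (0.76), PTTG1 (0.75), SLC35E3 (0.74) and UBE2T (0.71), and 9 of the 10 were lowest in fetus 274.

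The genes closest to the mean of the replication genes were PRIM2, a primase subunit (r = 0.86), FANCD2 of DNA crosslink repair (0.84), the histone chaperone ASF1B (0.83), PPIA (0.82) and PTTG1 (0.80). RPN2 (0.80) and KDELR2 (0.80), which serve the endoplasmic reticulum, the histone H2AFZ (0.79), NCAPG2 (0.79) and the tubulin TUBB (0.79) followed. Of these 10, 7 were lowest in fetus 274 and 3 in fetus 376. These correlations are descriptions over genes picked for their likeness, with no test.

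Means of whole lists were also set against the mitosis mean, with no test. For the further mitosis, replication and G1 genes r was 0.87, 0.70 and 0.72. For cell type markers r was 0.39 for 7 of myogenic progenitors, 0.32 for 8 of muscle fibres, 0.19 for 8 of endothelium and 0.16 for 8 of connective tissue. It was -0.05 for 5 of red cells, -0.12 for 4 of Schwann cells and -0.13 for 4 of leukocytes. With the replication mean, the further mitosis, replication and G1 genes had r of 0.56, 0.85 and 0.83. The marker lists, in the order above, had r of 0.21, 0.46, 0.49, 0.22, 0.41, 0.18 and 0.21 with it.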
